A study of Homo sapiens with 18 samples.

Results

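The genes described here encode the collagens, the laminin chains, the lysyl oxidases (LOX and LOXL1 to LOXL4), the lysyl hydroxylases (PLOD1 to PLOD3) and the thrombospondins (THBS1 to THBS4). They were chosen by gene symbol and by level, as the symbols of these families with a mean of at least 1 CPM (counts per 1000000 reads) over the 18 libraries, which kept 32 of 67 symbols. The kept genes are 15 of 44 collagen chains, 7 of 11 laminin chains, all 5 lysyl oxidases, all 3 lysyl hydroxylases and 2 of 4 thrombospondins, among 60642 symbols in the count tables. RNA came from MDA-MB-231 cells, an established human line of triple-negative breast cancer with mesenchymal traits. The cells received a control siRNA pool (siNS), a pool against the HP1γ mRNA (siHP1γ, gene CBX3) or a pool against the PRMT5 mRNA (siPRMT5), each at 25 nM for 48 h. They were then given ethanol vehicle (Eth) or 100 nM of the glucocorticoid dexamethasone (Dex) for 8 h. Each of the 6 conditions had 3 biological replicates, all from 1 cell line, and the siNS Eth libraries were the vehicle controls.

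Collagens and laminins form the scaffold on which cells sit and move. Each collagen molecule is a rope of chains that wind around each other, and glycine recurs along each chain at a fixed spacing because no larger residue has room inside the rope. Type I and type V collagens make fibrils, type IV collagen and the laminins make the sheet of the basement membrane, where laminins anchor epithelial cells. Lysyl hydroxylases modify collagen lysines inside the cell, and lysyl oxidases oxidize them outside it, which lets neighbouring molecules cross-link and stiffens the matrix. Thrombospondins are matrix glycoproteins that regulate adhesion and growth factor activity. Matrix genes are of interest here because glucocorticoids bind the glucocorticoid receptor (GR), a transcription factor, and HP1γ and PRMT5 were studied as partners of GR in cell migration.

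Total counts ran from 8682992 to 12472381 per library. Of the 15298 genes that passed the low-count filter, all 32 matrix genes were tested. Levels are given below as CPM normalized by TMM, a scaling of library sizes. PRMT5 stood at 249 ± 19.96 CPM (SD, n = 3) in siNS Eth and 7.41 ± 1.17 CPM in siPRMT5 Eth cells, and CBX3 stood at 256 ± 20.1 CPM and 9.89 ± 0.657 CPM in siNS Eth and siHP1γ Eth cells. VIM, which encodes the mesenchymal filament protein vimentin, was at 5444 to 9592 CPM in the 18 libraries, and of 6 luminal and epithelial markers ESR1, PGR and the epithelial cadherin CDH1 were below 1 CPM in every library. The sum of that list, carried by GATA3, FOXA1 and EPCAM, ran from 22.8 to 23.7 CPM in siNS Eth, from 16.2 to 20.9 CPM in siNS Dex and from 27.0 to 28.8 CPM in siHP1γ Dex libraries. Of 6 fibroblast markers PDGFRA, FAP, DCN, LUM and THY1 were below 1 CPM throughout, and the sum of the list, carried by PDGFRB, ran from 0.773 to 2.04 CPM in siNS Eth, from 1.94 to 3.17 CPM in siNS Dex and from 4.30 to 4.88 CPM in siHP1γ Eth libraries. Of 3 immune markers PTPRC and CD3E were below 1 CPM throughout, while CD68 was at 1.23 to 3.07 CPM in the 18 libraries. Of 4 endothelial markers CDH5 and VWF were below 1 CPM throughout, while the sum of the list, carried by PECAM1 and KDR, ran from 3.64 to 4.99 CPM in siNS Eth, from 11.8 to 12.6 CPM in siNS Dex and from 19.8 to 22.6 CPM in siPRMT5 Dex libraries. The part of these shifts in the matrix genes below was not tested.

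Short stretches of reference sequence show how these genes are laid out. COL4A1 and COL4A2, the main chains of type IV collagen, lie head to head on chromosome 13. Their RefSeq starts at positions 110307157 and 110307284 left 126 bases between them. The stretch from the COL4A1 start to the next COL4A2 exon downstream of it (GRCh38.p14, chr13:110307158-110307257, plus strand) is shown with 2 common promoter motifs in capitals, CCAAT and GGGCGG. GENCODE 44 also has an earlier COL4A2 start, at position 110305812 inside COL4A1. Searched on both strands, CCAAT was present in 34.6% and GGGCGG in 45.0% of 35116 RefSeq promoter windows of 300 bases.
COL4A1-COL4A2: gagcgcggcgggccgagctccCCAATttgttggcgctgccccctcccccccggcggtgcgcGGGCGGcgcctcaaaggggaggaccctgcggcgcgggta
LOX is shown by the stretch upstream of its annotated exons (chr5:122078414-122078509, minus strand), since it was the matrix gene with the largest Dex response. The capitals mark TGTTCT, the better conserved side of the sequence that GR binds.
LOX: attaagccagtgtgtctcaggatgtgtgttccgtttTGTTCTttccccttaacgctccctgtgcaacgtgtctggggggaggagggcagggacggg
TGTTCT on either strand was present in 14.8% of all windows and in 6 of the 35 windows found for 27 of the 32 genes, or 17.1%. These are matches of letters and no measurement of binding.

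The exons that encode the collagen helix share a form that the choice of genes did not use. The 15 collagen genes had a median of 51 exons with a median exon length of 63 bp, while the 17 other matrix genes had 22 exons of 144 bp and the 11421 protein-coding genes tested with more than 1 exon had 9 exons of 138 bp (GENCODE 44). In 5 of the 15 collagen genes the median exon was exactly 54 bp long, as in 7 of all 11421 genes. COL1A1, the fibril chain that moved most in siPRMT5 cells, and COL27A1, a fibrillar collagen chain that fell with Dex, are each shown by 1 such exon with the glycine codons (GGN) in capitals. They are exon 8 of COL1A1 (hg38, chr17:50197949-50198002, minus strand) and exon 4 of COL27A1 (chr9:114178291-114178344, plus strand).
COL1A1: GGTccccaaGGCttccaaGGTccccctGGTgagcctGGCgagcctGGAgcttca
COL27A1: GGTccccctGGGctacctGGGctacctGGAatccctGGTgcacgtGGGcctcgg
COL1A1 had 21 coding exons of 54 bp and all 21 kept the glycine spacing along their length, while 32 of 33 did in COL27A1. Reads were mapped with a tool that does not split them across introns, so reads over junctions can be lost in genes with many short exons. The effect of that on the collagen levels was not tested.

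The matrix genes differed widely in level. Per kb of annotated exon, the highest mean over the 18 libraries was that of LAMC1, the common laminin γ chain, at 25.4 (range 20.7 to 31.2) CPM per kb. It was followed by LAMB3 at 23.5 (range 13.9 to 33.4), THBS1 at 21.3 (range 16.3 to 26.1), PLOD1 at 17.0 (range 12.7 to 21.6) and LOXL2 at 15.7 (range 13.2 to 19.3) CPM per kb. LAMC1 was above LAMB3 in 11 of the 18 libraries and LAMB3 above THBS1 in 11, so that these neighbours were not ordered beyond their spread, while THBS1 was above PLOD1 in 17. LAMA2, the laminin α chain of muscle, was lowest at 0.186 (range 0.0794 to 0.368) CPM per kb. In all, 11 of the 32 genes were above the median of the 13500 tested genes with a GENCODE model, 5.84 CPM per kb. Exon length here is the union of all annotated exons, which exceeds the main (canonical) transcript unevenly. It was 14518 against 3749 bp for PLOD2, 18592 against 5650 bp for LAMB1 and 8446 against 7929 bp for LAMC1. The order thus depends on the length used, and another length was not tried.

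Several collagens lacked a partner chain. COL1A1 was measured at a mean of 7.85 CPM, while COL1A2, the other chain of type I collagen, had no count in 16 of 18 libraries. COL6A1 and COL6A2 were present together, with COL6A3 below 1 CPM in 17 libraries. COL4A6, the partner of COL4A5 in some basement membranes, stayed below 1 CPM in all 18. On the rule's own scale, the genes just inside the limit were THBS3 at 1.83 and LOXL4 at 2.69 CPM, and those just outside were LAMA4 at 0.980, COL4A4 at 0.823 and COL7A1 at 0.788 CPM. These 3 also passed the low-count filter. Among the 35 symbols left out, 21 had a mean below 0.1 CPM and 3 (COL5A3, COL11A2 and COL22A1) had no count in any library.

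Called below means past a threshold, with p-values from edgeR's quasi-likelihood test adjusted by the Benjamini-Hochberg method over the 15298 genes. For a Dex response this is an adjusted p under 0.01 with at least a 1.5-fold change, and for a depletion or a difference between responses an adjusted p under 0.05. With these, 31 of the 32 genes were called in at least 1 of the 9 comparisons and 1, THBS3, in none. The share of all genes called in at least 1 was not computed. Single depletion comparisons called from 24.0% to 42.4% of all genes, so 31 of 32 is not read as a trait of these families. COL27A1, with 7, was called in the most. With 3 libraries against 3 an exact two-sided permutation test of a single gene cannot go below p = 0.1.

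**Figure D1:**
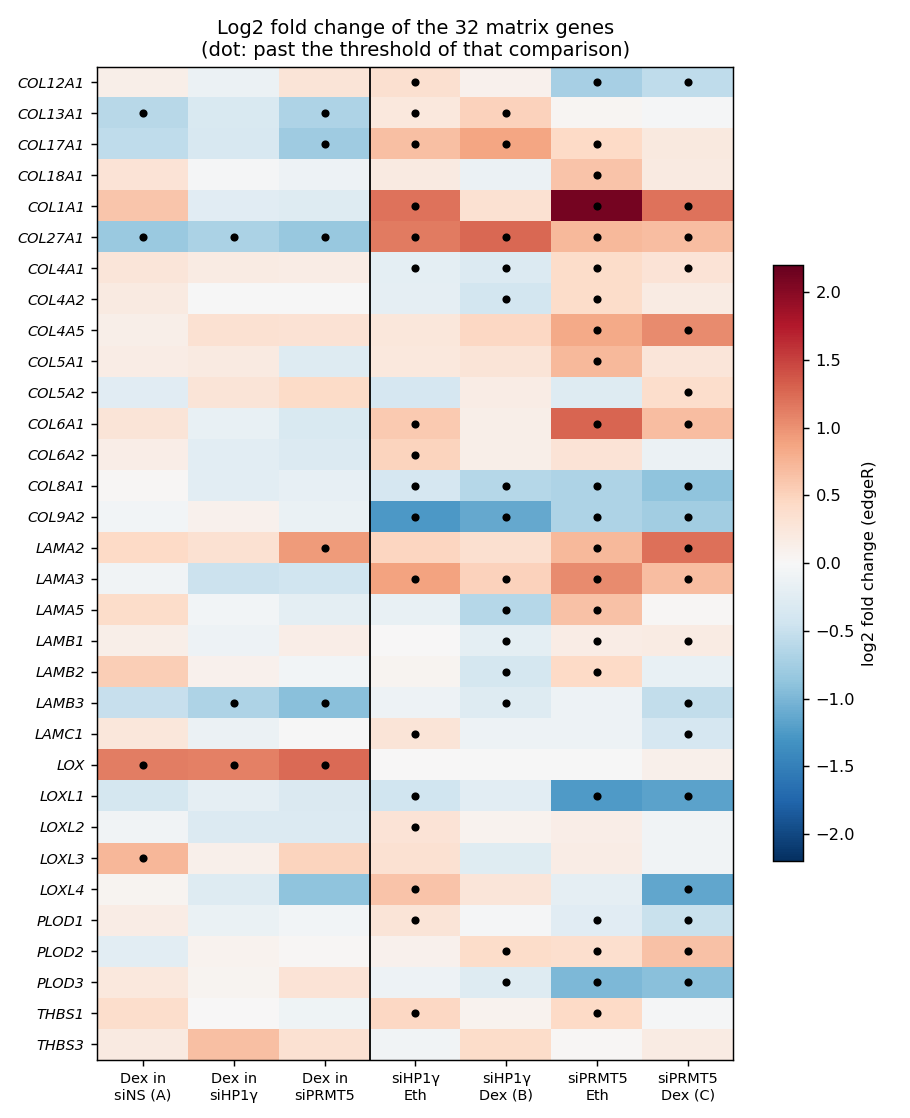
Log2 fold changes of the 32 matrix genes (rows) for the Dex response in siNS, siHP1γ and siPRMT5 cells and for each depletion with Eth or with Dex (columns), with a dot where the gene was called. LOX was raised by Dex at 1.12 to 1.24 in the 3 siRNA conditions and had no dot in the 4 depletion columns.

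The first question was how Dex changed these genes in control cells (comparison A, siNS Dex against siNS Eth). LOX and LOXL3 rose and COL27A1 and COL13A1 fell, 4 of 32 genes, where 2.71% of all genes were called (1.65% higher and 1.06% lower). None of the 7 laminins, 3 lysyl hydroxylases or 2 thrombospondins was called by edgeR or by DESeq2, while 6 of the laminins and 2 of the other 5 genes had an unadjusted p under 0.05. The share of all genes at that unadjusted p was not computed for comparison A, so these counts have no baseline. The median log2 fold change was 0.15 for the 32 genes and 0.0036 for all genes, and the median size was 0.25 and 0.14. In 24 of the 32 genes the 3 Dex and 3 Eth libraries did not overlap, as in 27.9% of all genes. For Dex in siHP1γ and siPRMT5 cells they did not overlap in 12 and 15 of the 32. The siHP1γ and siNS libraries did not overlap in 17 genes with Dex and 21 with Eth. For siPRMT5 and siNS these were 22 and 24. The share of all genes without overlap was computed for comparison A alone. In RNA from whole cultures, fewer cells that express a gene and less RNA per cell cannot be told apart.

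LOX, the founding lysyl oxidase, is located at chr5:122063195-122078413 (hg38, GENCODE 44). It was at 54.1, 48.3 and 50.5 CPM in the siNS Eth libraries and at 105, 111 and 116 CPM in the siNS Dex libraries. Every Dex library was above every Eth library (log2 fold change 1.12, SE 0.071, adjusted p = 5.96e-12 by edgeR). The response was seen again in both depleted cell populations. In siHP1γ cells LOX was at 50.9, 50.4 and 51.6 CPM with Eth and 116, 111 and 104 CPM with Dex (log2 fold change 1.12, SE 0.070, adjusted p = 9.73e-12). In siPRMT5 cells it was at 50.8, 49.8 and 51.8 CPM with Eth and 124, 121 and 115 CPM with Dex (log2 fold change 1.24, SE 0.071, adjusted p = 4.61e-13). The groups did not overlap in any of the 3 siRNA conditions. The Dex response differed from that of siNS cells by -0.0041 (95% interval -0.21 to 0.20) in siHP1γ cells and by 0.12 (-0.087 to 0.32) in siPRMT5 cells, and neither difference was called. LOX was the only one of the 32 genes whose Dex response in each siRNA condition also passed a fold change of at least 2. It shares exon bases with SRFBP1 on the opposite strand, and the strand setting of the counting is not given in the sources used here.

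Of the other lysyl oxidases only LOXL3 was called for Dex, and only in siNS cells. LOXL3 was at 4.42, 6.42 and 4.66 CPM in siNS Eth and at 10.2, 8.61 and 6.98 CPM in siNS Dex libraries, without overlap (log2 fold change 0.73, SE 0.17, adjusted p = 0.00563 by edgeR). This call was lost when siNS Eth replicate 1 or 3 or siNS Dex replicate 1 or 2 was left out, and the gene shares exon bases with HTRA2 and DOK1. In the depleted cells LOXL3 was not called, with a log2 fold change of 0.12 in siHP1γ and 0.49 in siPRMT5 cells. Its siPRMT5 libraries did not overlap either, at 5.50 to 6.22 CPM with Eth and 7.02 to 8.80 CPM with Dex. The differences from siNS cells were -0.61 (95% interval -1.10 to -0.12) and -0.24 (-0.74 to 0.26), and neither was called. LOXL1, LOXL2 and LOXL4 had log2 fold changes of -0.39, -0.081 and 0.054 with Dex in siNS cells and were not called.

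COL27A1 (chr9:114155537-114312511), a fibrillar collagen chain of cartilage, moved in the opposite direction. Its levels were 19.5, 19.3 and 17.3 CPM in siNS Eth and 11.9, 10.3 and 9.61 CPM in siNS Dex libraries, so that all Dex libraries were lower (log2 fold change -0.81, SE 0.12, adjusted p = 1.5e-05 by edgeR). In siHP1γ cells it was at 45.3, 40.1 and 38.5 CPM with Eth and 26.4, 26.0 and 23.9 CPM with Dex (log2 fold change -0.70, SE 0.10, adjusted p = 1.23e-05). In siPRMT5 cells it was at 28.2, 34.4 and 29.2 CPM with Eth and 16.2, 17.2 and 17.8 CPM with Dex (log2 fold change -0.84, SE 0.10, adjusted p = 8.7e-07). COL27A1 thus fell with Dex in each siRNA condition, from a higher starting level in both depletions. The response differed from that of siNS cells by 0.11 (95% interval -0.19 to 0.42) and -0.030 (-0.36 to 0.29).

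COL13A1, a transmembrane collagen of cell adhesion sites (chr10:69801880-69964275), was at 60.7, 59.4 and 56.6 CPM in siNS Eth and 38.9, 37.5 and 39.4 CPM in siNS Dex libraries (log2 fold change -0.61, SE 0.080, adjusted p = 3.78e-06 by edgeR). In siPRMT5 cells the levels were 65.5, 56.0 and 61.2 CPM with Eth and 37.9, 36.3 and 39.5 CPM with Dex (log2 fold change -0.69, SE 0.080, adjusted p = 3.41e-07). The Dex libraries were again all lower. In siHP1γ cells the log2 fold change of -0.34 (adjusted p = 0.00594 by edgeR) was under the fold limit. The difference from siNS cells was 0.27 (95% interval 0.043 to 0.50, not adjusted for the number of genes) and was not called.

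**Figure D2:**
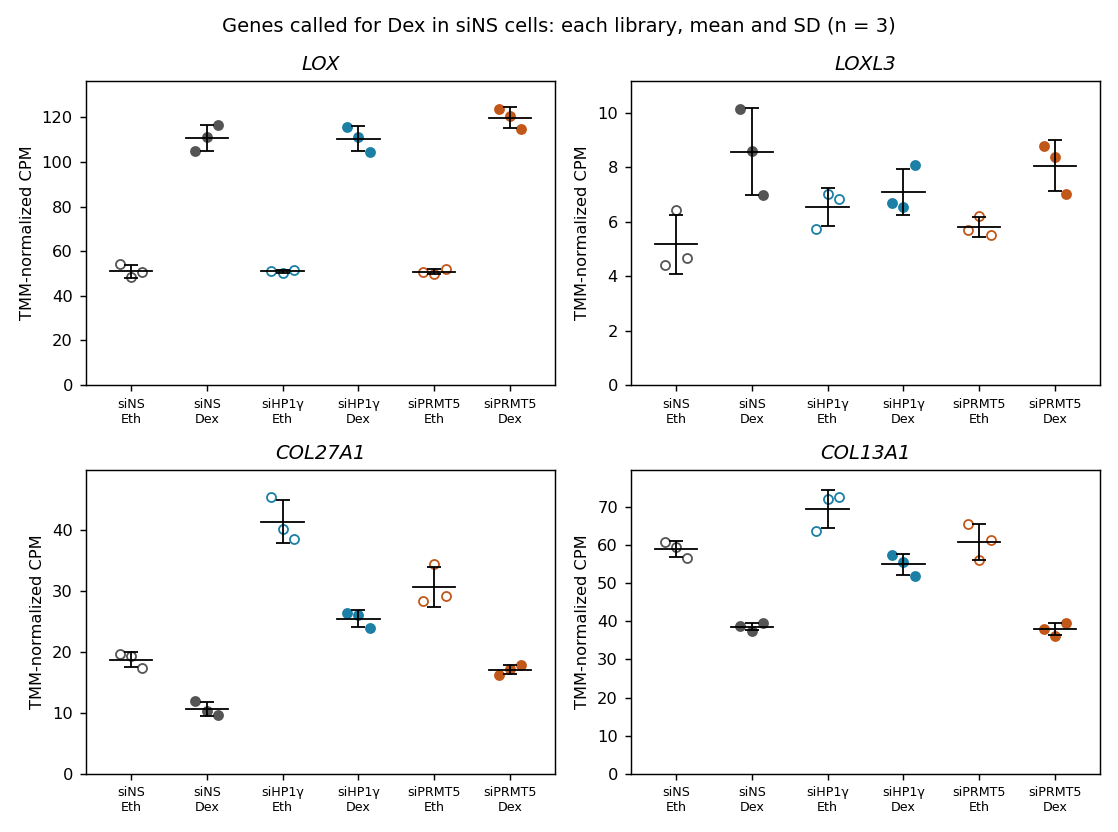
TMM-normalized CPM of LOX, LOXL3, COL27A1 and COL13A1 in each of the 18 libraries (points, open for Eth and filled for Dex), with the mean and SD of the 3 libraries of a condition. The Dex points of LOX lie above and those of COL27A1 below the Eth points in all 3 siRNA conditions.

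The Dex response was also measured within each depletion. In siHP1γ cells 3 of 32 genes were called, where 1.67% of all genes were (1.01% higher and 0.660% lower): LOX rose, and COL27A1 and LAMB3 fell. The LAMB3 call, at a log2 fold change of -0.67, was lost without siHP1γ Dex replicate 1, which stood farthest from its replicates (chi-square per degree of freedom up to 12.3, with 2.10 the lowest of any replicate pair). In siNS cells the log2 fold change of LAMB3 with Dex was -0.50 (adjusted p = 0.000282 by edgeR), short of the fold limit alone. Its differences in response were not called, at -0.17 for siHP1γ and -0.42 for siPRMT5. In siPRMT5 cells 6 of 32 genes were called, where 5.44% of all genes were (2.69% higher and 2.75% lower). LOX and LAMA2 rose, and COL13A1, COL17A1, COL27A1 and LAMB3 fell. LAMA2 went from 4.83, 5.05 and 4.30 CPM with Eth to 8.41, 8.96 and 9.73 CPM with Dex (log2 fold change 0.93, SE 0.15, adjusted p = 5.19e-05 by edgeR). COL17A1, the transmembrane collagen of hemidesmosomes, went from 15.6, 17.1 and 14.6 CPM to 8.99, 10.0 and 8.37 CPM (log2 fold change -0.78, SE 0.14, adjusted p = 0.000148). In siNS cells the same genes had log2 fold changes of 0.44 and -0.56, and their responses were not called different from siNS cells (differences 0.49 and -0.22).

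The next question was whether a depletion changed the Dex response itself, tested as the difference between the response in depleted and in siNS cells. For siPRMT5 it was lower for COL1A1, COL6A1, LAMA5, LAMB2 and THBS1, 5 of 32 genes, and higher for none, where 3.80% of all genes were called (1.58% higher and 2.23% lower). COL1A1 was at 3.42, 3.57 and 2.69 CPM in siNS Eth and 5.12, 4.36 and 5.26 CPM in siNS Dex libraries, against 12.4, 14.0 and 15.1 CPM in siPRMT5 Eth and 10.8, 10.4 and 13.0 CPM in siPRMT5 Dex libraries. The Dex libraries were all higher in siNS cells, while the groups overlapped in siPRMT5 cells (difference -0.90, SE 0.25, adjusted p = 0.0390 by edgeR). COL6A1, a chain of the microfibril collagen VI, was at 33.9, 37.6 and 33.4 CPM and 43.9, 41.0 and 42.4 CPM in siNS cells and at 82.2, 91.3 and 82.4 CPM and 66.0, 62.4 and 75.3 CPM in siPRMT5 cells with Eth and Dex. Dex was higher without overlap in siNS cells and lower without overlap in siPRMT5 cells (difference -0.61, SE 0.13, adjusted p = 0.00685).

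LAMA5, the α chain of laminin-511, was at 65.4, 75.3 and 63.1 CPM in siNS Eth and 98.3, 82.3 and 90.1 CPM in siNS Dex, and at 117, 105 and 97.3 CPM in siPRMT5 Eth and 85.1, 88.6 and 103 CPM in siPRMT5 Dex libraries (difference -0.62, SE 0.15, adjusted p = 0.0159 by edgeR). LAMB2, a laminin β chain, was at 66.9, 84.9 and 78.1 CPM and 117, 111 and 107 CPM in siNS cells and at 105, 108 and 98.6 CPM and 103, 90.8 and 107 CPM in siPRMT5 cells (difference -0.60, SE 0.15, adjusted p = 0.0243). THBS1, a matrix glycoprotein that activates latent TGF-β, was at 149, 151 and 157 CPM and 194, 211 and 191 CPM in siNS cells and at 191, 211 and 219 CPM and 179, 191 and 216 CPM in siPRMT5 cells (difference -0.47, SE 0.12, adjusted p = 0.0212). In all 3 genes the siNS Dex libraries were above the siNS Eth libraries, while the siPRMT5 groups overlapped. The siNS Dex increases of the 5 genes were themselves not called, on the fold limit or on the adjusted p, with log2 fold changes of 0.61, 0.28, 0.41, 0.54 and 0.38. These calls rested on few libraries: with 1 library left out the number ran from 1 (COL6A1, without siNS Eth replicate 1) to 7. It was 2 without siNS Dex replicate 1, siNS Eth replicate 3, siPRMT5 Dex replicate 1 or 2 or siPRMT5 Eth replicate 2, and 3 without siPRMT5 Eth replicate 1 or 3.

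For siHP1γ none of the 32 differences was called by edgeR, where 0.399% of all genes were (0.118% higher and 0.281% lower), and DESeq2 called 2, COL6A1 and LAMC1, both lower. An unadjusted p under 0.05 was reached by 13 of 32 genes, against 17.2% of all genes, and for siPRMT5 by 13, against 19.0%. The median difference was -0.21 over the 32 genes for siHP1γ and -0.21 for siPRMT5, and -0.012 and -0.0033 over all genes. Both differences are taken from the same siNS libraries. For COL1A1, COL6A1, LAMA5, LAMB2 and THBS1 the siHP1γ differences were -0.87, -0.44, -0.47, -0.44 and -0.38 (adjusted p = 0.112, 0.110, 0.128, 0.151 and 0.114 by edgeR).

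**Figure D3:**
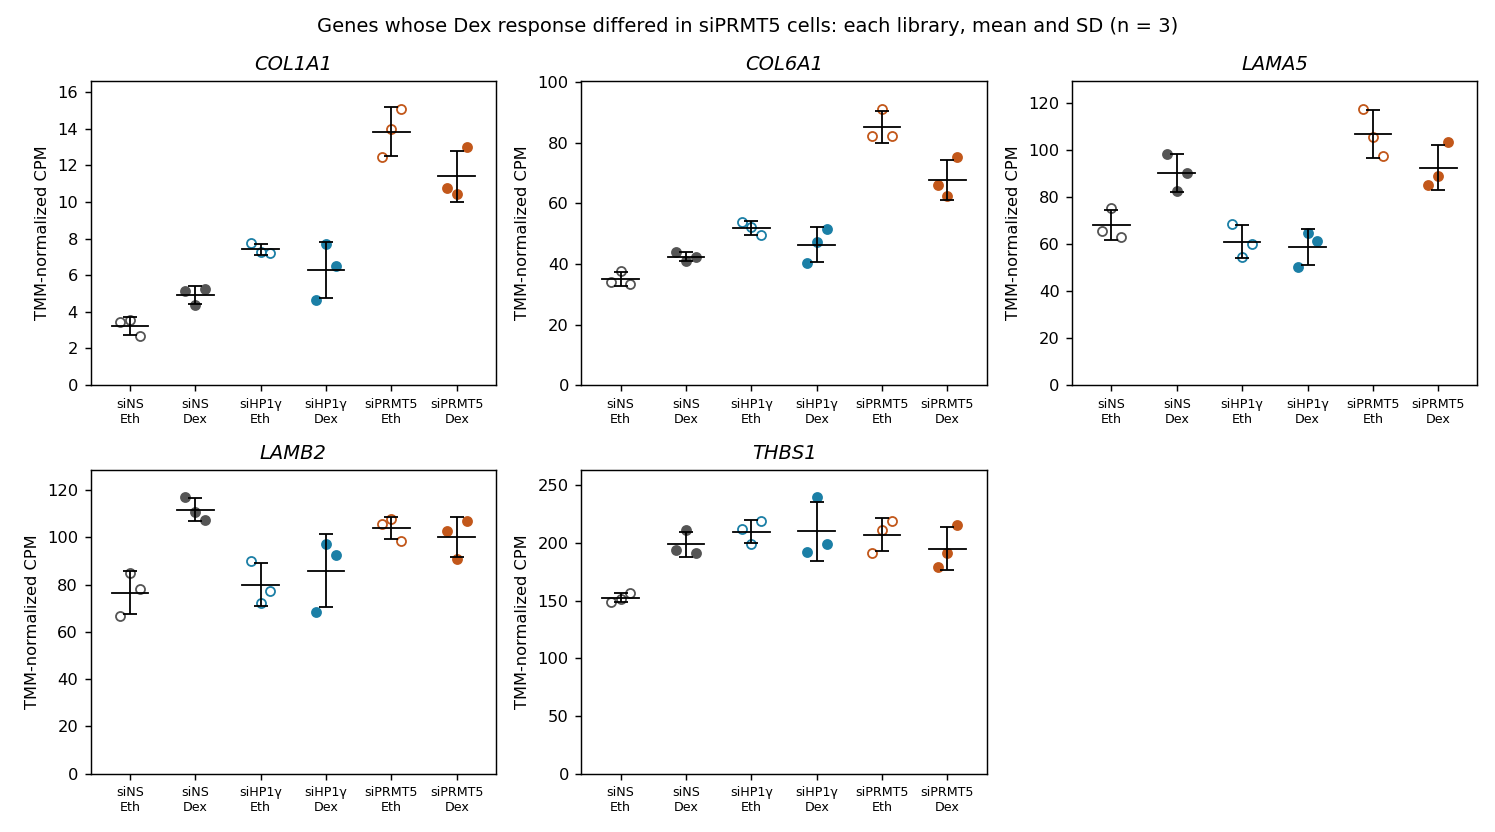
TMM-normalized CPM of COL1A1, COL6A1, LAMA5, LAMB2 and THBS1 in each library (points, open for Eth and filled for Dex), with the mean and SD of 3 libraries. In siNS cells every Dex point lies above every Eth point, and in siPRMT5 cells no gene shows this order.

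In siHP1γ cells COL27A1, COL17A1 and the laminin chain gene LAMA3 were higher and COL9A2, COL8A1 and COL4A1 lower than in siNS cells with either treatment. With Dex (comparison B, siHP1γ Dex against siNS Dex) 14 of 32 genes were called, 5 higher and 9 lower, where 24.0% of all genes were (11.7% higher and 12.3% lower). Scaled by library size alone the split was 7 higher and 6 lower, and over all genes the share of higher calls went from 48.7% to 69.2%. Without siHP1γ Dex replicate 1 it was 6 higher and 6 lower. Without Dex, in libraries that share none with comparison B, 17 were called, 13 higher and 4 lower, where 31.8% of all genes were (16.5% higher and 15.2% lower), and library size scaling gave 14 and 2. In both pairs of conditions 7 genes were called, all in the same direction, which was 50.0% of the calls with Dex and 41.2% of those without. Over all genes these shares were 62.8% and 47.4%, with 2298 of 2305 in the same direction. The 7 were the genes named at the start and COL13A1, which was higher. Without Dex the COL4A1 call was lost with library size scaling and without a low-count filter. It was also lost without siNS Eth replicate 1 or siHP1γ Eth replicate 1, 2 or 3. The COL13A1 call without Dex was lost without a low-count filter, and without siNS Eth replicate 3 or siHP1γ Eth replicate 2 or 3.

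The largest changes with Dex were those of COL27A1, COL9A2 and COL17A1. COL27A1 was at the siNS Dex and siHP1γ Dex levels given above, without overlap (log2 fold change 1.26, SE 0.11, adjusted p = 4.5e-09 by edgeR, and 1.14 without Dex). COL9A2, a chain of the cartilage collagen IX that sits on fibril surfaces, was at 4.24, 4.79 and 4.99 CPM in siNS Dex and 2.28, 1.96 and 2.16 CPM in siHP1γ Dex libraries (log2 fold change -1.12, SE 0.23, adjusted p = 0.000609, and -1.27 without Dex). COL17A1 was at 7.33, 7.30 and 8.98 CPM and 12.4, 15.8 and 15.2 CPM (log2 fold change 0.87, SE 0.14, adjusted p = 4.15e-05, and 0.66 without Dex). None of these 3 genes had overlapping groups with Dex, where 17 of the 32 genes had no overlap. LAMA5, COL8A1 (a network collagen of vessel walls) and COL13A1 followed at -0.63, -0.63 and 0.51. LAMA3 and COL4A2 completed the 8 largest, at 0.50 and -0.41. Without Dex the largest change among the higher genes was that of COL1A1, at 7.74, 7.29 and 7.21 CPM in siHP1γ Eth libraries against the siNS Eth values above (log2 fold change 1.20, SE 0.19, adjusted p = 3.02e-05), while with Dex it was not called (0.33). COL6A1, COL6A2 and COL12A1 were also called higher without Dex, at 0.57, 0.50 and 0.35, and LAMC1 and PLOD1 at 0.28 and 0.29. The calls of COL6A2, LAMC1 and PLOD1 were lost without siNS Eth replicate 1, and that of COL12A1 without siNS Eth replicate 3. That of LAMC1 was also lost without siHP1γ Eth replicate 1.

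Among the 5 lysyl oxidases none was called in comparison B by edgeR or DESeq2, and 0 had an unadjusted p under 0.05. Without Dex LOXL4 and LOXL2 were higher at 0.62 and 0.30 and LOXL1 lower at -0.44. DESeq2 called only LOXL2 of these, and the LOXL1 and LOXL4 calls were each lost without siNS Eth replicate 2 or 3 or siHP1γ Eth replicate 2 or 3. PLOD2 was higher with Dex at 0.40, where its 3 siHP1γ Dex libraries spread from 106 to 159 CPM, and PLOD3 was lower at -0.28 (adjusted p = 0.0415 by edgeR). The calls of PLOD2, PLOD3, LAMB2 and LAMB3 in comparison B were each lost without siHP1γ Dex replicate 1. Those of PLOD2 and LAMB3 were also lost without siNS Dex replicate 1, and that of LAMB3 without siNS Dex replicate 3. The PLOD3 call was lost in 8 of the 18 fits with 1 library left out. The calls of LAMB1, LAMB3 and PLOD3 were lost with library size scaling.

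In siPRMT5 cells COL1A1, COL6A1, COL4A5 and LAMA3 were higher and LOXL1, PLOD3 and COL8A1 lower than in siNS cells with either treatment. With Dex (comparison C, siPRMT5 Dex against siNS Dex) 19 of 32 genes were called, 10 higher and 9 lower, where 42.4% of all genes were (20.6% higher and 21.9% lower). Without Dex 22 were called, 16 higher and 6 lower, where 42.1% of all genes were (20.6% higher and 21.6% lower). In both 15 genes were called, all in the same direction, or 78.9% of the calls with Dex and 68.2% of those without. Over all genes the shares were 67.2% and 67.6%, with 4296 of 4358 in the same direction. The 9 higher genes were COL1A1, COL4A1, COL4A5, COL6A1, COL27A1, LAMA2, LAMA3, LAMB1 and PLOD2, and the 6 lower genes were COL8A1, COL9A2, COL12A1, LOXL1, PLOD1 and PLOD3. The LAMB1 call with Dex was lost without a low-count filter and without siPRMT5 Dex replicate 3. Its call without Dex was kept in 14 of 18 fits with 1 library left out and 5 of 7 other settings. The PLOD1 and PLOD2 calls without Dex were each lost without siNS Eth replicate 2 or siPRMT5 Eth replicate 3. The median size of the log2 fold change was 0.38 for the 32 genes and 0.28 for all genes with Dex, and 0.44 and 0.28 without.

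COL1A1 had the largest log2 fold change of the 32 genes in the 9 comparisons. From the library values above, all 3 siPRMT5 Eth libraries were higher than all siNS Eth libraries (log2 fold change 2.10, SE 0.18, adjusted p = 4.66e-10 by edgeR), and with Dex the log2 fold change was 1.20 (adjusted p = 1.49e-06). COL6A1 was 1.29 without and 0.67 with Dex, and its partner COL6A2 was not called in either (0.31 and -0.13). The ratio of COL6A1 to COL6A2 per kb of exon was 0.531 ± 0.0556 (SD, n = 3) in siNS Eth and 1.04 ± 0.0636 in siPRMT5 Eth libraries, and 0.554 ± 0.0288 in siHP1γ Eth libraries. COL4A5, a basement membrane chain, was at 2.83, 3.70 and 4.08 CPM in siNS Dex and 7.92, 7.32 and 6.34 CPM in siPRMT5 Dex libraries, without overlap (log2 fold change 1.03, SE 0.19, adjusted p = 7.32e-05). LAMA2 was at 4.15, 3.81 and 3.72 CPM in siNS Dex libraries and higher in every siPRMT5 Dex library (log2 fold change 1.21, SE 0.15, adjusted p = 5.85e-07). COL5A1, a chain of the fibril-starting collagen V, was called without Dex only (0.72) and its partner COL5A2 with Dex only (0.39), and the differences between Eth and Dex were not called. The COL5A2 call was lost under DESeq2, without a low-count filter, and without siNS Dex replicate 1 or siPRMT5 Dex replicate 2. The differences were -0.45 for COL5A1 and 0.68 for COL5A2. COL18A1, the source of endostatin, was called without Dex (0.63) and not with Dex (0.21).

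Among the collagens that were lower, COL8A1 was at 20.8, 20.6 and 20.9 CPM in siNS Dex and 11.2, 11.7 and 10.8 CPM in siPRMT5 Dex libraries (log2 fold change -0.88, SE 0.11, adjusted p = 2.16e-07 by edgeR). COL12A1, a collagen of fibril surfaces, was at 82.9, 86.7 and 86.1 CPM and 46.8, 60.7 and 65.5 CPM (log2 fold change -0.56, SE 0.10, adjusted p = 9.6e-05). COL9A2 was -0.76 with and -0.67 without Dex. COL8A1, COL12A1 and COL9A2 had no overlap between the groups with Dex, where 22 of the 32 genes had none. The COL9A2 call with Dex was lost without siPRMT5 Dex replicate 2, and the call without Dex was lost without siNS Eth replicate 1.

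In Dex-treated cells LAMA3 was higher and LAMB3 lower in both depletions than in siNS cells. LAMA3, a laminin α chain gene, was at 27.1, 24.8 and 24.9 CPM in siNS Dex libraries, 33.0, 37.5 and 38.6 CPM in siHP1γ Dex libraries and 39.8, 41.3 and 42.5 CPM in siPRMT5 Dex libraries. It was higher than siNS in every library of both depletions (log2 fold change 0.68, SE 0.10, adjusted p = 4.55e-06 for siPRMT5 by edgeR, 0.50 for siHP1γ). LAMB3, a laminin β chain gene (chr1:209614870-209652425), was at 99.9, 94.6 and 106 CPM, 69.1, 88.2 and 89.8 CPM and 66.1, 64.4 and 76.8 CPM in the same groups (log2 fold change -0.54, SE 0.092, adjusted p = 3.2e-05 for siPRMT5, -0.29 for siHP1γ). It was lower than siNS in every library of both. The Dex response itself had 1 direction, as both genes had lower means with Dex than with Eth in both depletions. For LAMA3 the means with Eth and Dex were 50.3 and 36.4 CPM in siHP1γ and 56.2 and 41.2 CPM in siPRMT5 cells. Both LAMA3 responses had an adjusted p under 0.01 by edgeR and were short of the fold limit alone.

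Without Dex LAMA3 was higher in both depletions at 0.89 and 1.05, both called. LAMB3 was not called in either (-0.11 and -0.12). LAMB1 and LAMC1, chains that pair in laminin-111 and laminin-211, had a ratio per kb of exon of 0.369 ± 0.0142 (SD, n = 3) in siNS Dex and 0.538 ± 0.0201 in siPRMT5 Dex libraries, where LAMB1 was higher (0.18) and LAMC1 lower (-0.36).

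The enzymes that modify and cross-link collagen also split by member in siPRMT5 cells. LOXL1, which acts on elastin, was at 7.51, 8.61 and 9.16 CPM in siNS Dex and 4.11, 3.21 and 3.85 CPM in siPRMT5 Dex libraries (log2 fold change -1.19, SE 0.17, adjusted p = 4.01e-06 by edgeR). LOXL4 was at 2.91, 2.83 and 2.36 CPM and 1.08, 1.32 and 1.24 CPM (log2 fold change -1.14, SE 0.26, adjusted p = 0.000741), and was not called without Dex (-0.20). PLOD3, a lysyl hydroxylase that also adds sugars to hydroxylysine, was at 34.4, 36.5 and 34.8 CPM and 18.8, 18.5 and 18.3 CPM (log2 fold change -0.92, SE 0.11, adjusted p = 9.67e-08, and -0.99 without Dex). The siPRMT5 libraries were below the siNS libraries without overlap in all 3, where 22 of the 32 genes had no overlap in comparison C. PLOD1 was lower too (-0.49). PLOD2, the hydroxylase of collagen telopeptides, was at 94.6, 99.7 and 102 CPM and 146, 178 and 136 CPM, higher in every siPRMT5 Dex library (log2 fold change 0.64, SE 0.11, adjusted p = 6.59e-05). LOX, LOXL2 and LOXL3 were not called in siPRMT5 cells with Dex (0.11, -0.080 and -0.083; 95% intervals -0.025 to 0.25, -0.22 to 0.057 and -0.41 to 0.24) or without (-0.0046, 0.14 and 0.16).

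**Figure D4:**
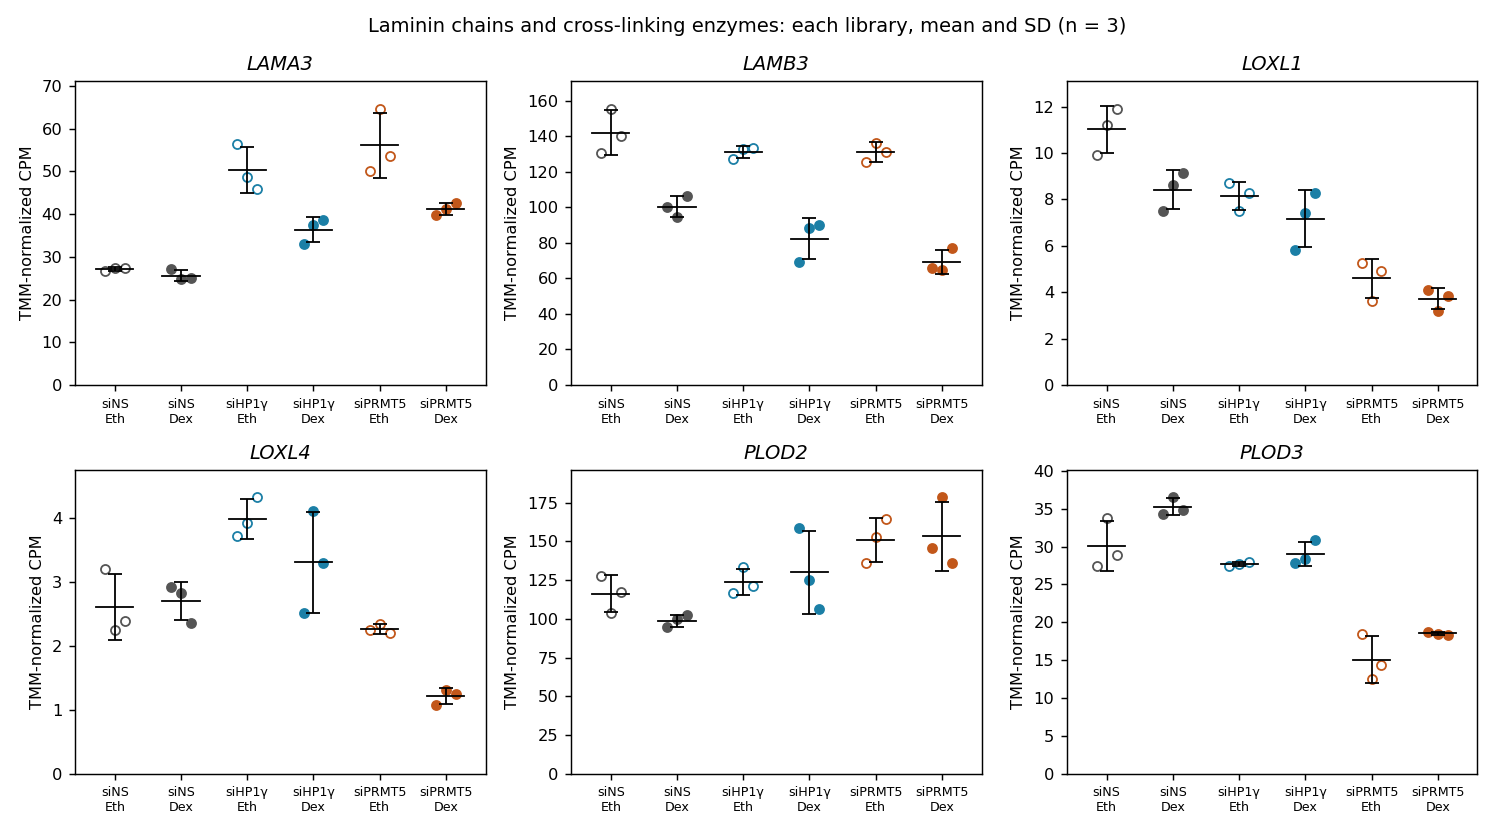
TMM-normalized CPM of LAMA3, LAMB3 and LOXL1 (top) and of LOXL4, PLOD2 and PLOD3 (bottom) in each library (points, open for Eth and filled for Dex), with the mean and SD of 3 libraries. In siPRMT5 cells the mean levels of LAMA3 and PLOD2 were above and those of LOXL1 and PLOD3 below the siNS level with either treatment.

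COL4A1 and COL4A2, which share the stretch between their starts printed above, kept a similar proportion in all conditions. COL4A1 was at 56.2, 56.7 and 61.8 CPM in siNS Dex, 47.5, 46.9 and 47.3 CPM in siHP1γ Dex and 74.8, 70.2 and 69.3 CPM in siPRMT5 Dex libraries, with no overlap among the 3 groups (-0.30 for siHP1γ and 0.29 for siPRMT5, both called). COL4A2 was at 116, 108 and 128 CPM, 80.4, 94.2 and 91.2 CPM and 135, 117 and 149 CPM in the same groups (-0.41, called, and 0.18, adjusted p = 0.0735 by edgeR). Without Dex the siPRMT5 changes were 0.40 and 0.40, both called. Per kb of exon the mean ratio of COL4A1 to COL4A2 lay between 0.619 and 0.709 in the 6 conditions, with an SD of at most 0.0883.

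THBS1 was called in both depletions without Dex (0.46 for siHP1γ and 0.44 for siPRMT5) and in neither with Dex (0.081 and -0.027). From 149, 151 and 157 CPM in siNS Eth, all libraries of siHP1γ Eth, at 212, 199 and 219 CPM, and of siPRMT5 Eth were higher. THBS3 had at most 3.91 CPM in any library, and its log2 fold change of 0.67 with Dex in siHP1γ cells had a 95% interval of -0.0055 to 1.35.

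Genes that work with these proteins were counted from lists of matrix partners, collagen-processing enzymes and matrix receptors. Of all genes, 1.65% were called higher and 1.06% lower in comparison A. The shares were 20.6% and 21.9% in comparison C and 11.7% and 12.3% in comparison B. Of 26 non-collagen matrix partners 15 were tested, and in comparison A 6 rose and 0 fell, led by FN1, which encodes fibronectin (1.74), FBLN1 (1.52) and FBLN5 (1.35), both fibulins. Of 27 genes that process collagen chains 23 were tested, and 0 were called in comparison A by edgeR or DESeq2, while 9 had an unadjusted p under 0.05. The share of all genes at that unadjusted p was not computed for comparison A. Of 20 matrix receptors 17 were tested, with ITGA10 (3.17), an integrin chain that binds collagen, and ITGA5 (0.64) higher and ITGA2 (-0.82) lower. In siPRMT5 Dex against siNS Dex cells 3 of the 23 processing genes were higher and 13 lower, led by the prolyl hydroxylases P3H2 (-1.02) and P3H3 (-0.88) and the collagen glycosyltransferase COLGALT1 (-0.86). The partners gave 6 higher and 5 lower, with HSPG2 (perlecan) at -1.27, and the receptors 5 and 5, with DAG1 (dystroglycan) at -1.56. In siHP1γ Dex against siNS Dex cells the counts were 3 higher and 2 lower for processing, 4 and 7 for partners and 6 and 3 for receptors, led by P3H2 (-0.69), EFEMP2 (1.74) and ITGB4 (-0.94).

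FN1 was also among the genes whose Dex response was smaller in depleted cells. The difference from siNS cells was -0.86 for siHP1γ (adjusted p = 0.000872 by edgeR) and -0.94 for siPRMT5 (adjusted p = 8.53e-05). Of all genes, 0.118% had a higher and 0.281% a lower difference called with siHP1γ, and 17.2% an unadjusted p under 0.05. With siPRMT5 1.58% were called higher and 2.23% lower. For the 15 partners 2 differences were lower and 0 higher with siHP1γ, and 1 lower and 5 higher with siPRMT5. For the 23 processing genes 0 were called with siHP1γ by edgeR or DESeq2 (10 at an unadjusted p under 0.05) and 2, P3H2 and P4HA2, were lower with siPRMT5. The 17 receptors had 0 with siHP1γ by edgeR (2 by DESeq2, and 8 at an unadjusted p under 0.05), and 1 higher and 4 lower with siPRMT5.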

How the data were processed

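The 18 libraries of MDA-MB-231 RNA were grouped into 6 conditions of 3 replicates (siNS, siHP1γ or siPRMT5, with Eth or Dex) by their labels. The authors prepared libraries with Lexogen kits, aligned reads to hg38 by Bowtie2 2.4.2 and ran htseq-count (HTSeq 0.9.1). The authors deposited whole-number counts per gene symbol, without normalization, for 60642 symbols. A further table holds the output of the authors' DESeq2 comparisons (means, log2 fold changes and p-values) and was not used. The gene annotation and strand setting are not given in the sources used here. Without strand, reads of a gene and of one on the opposite strand cannot be told apart, and 17 of the 32 genes described share exon bases with another gene. Of 33 genes that met the rule 1 is not reported here and is left out of every count of matrix genes.

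From the counts, filterByExpr kept 15298 genes, and edgeR 4.0.16 (R 4.3.3) fitted all 18 libraries with TMM scaling, a mean for each condition and 12 residual df (glmQLFit and glmQLFTest). p-values were adjusted by Benjamini-Hochberg over all genes tested. The SE is the size of the log2 fold change divided by the square root of F. Total counts per library, from 8682992 to 12472381, set the counting precision. Each p-value sets a difference between conditions against the spread between these replicates of 1 cell line. In counts simulated for comparison A on 14840 genes, the fit recovered 200 of 200 changed genes with 0 false calls. Simulated for comparison B (14845 genes) and for the difference in Dex response with siPRMT5 (14843 genes), it recovered 200 of 200 with 13 false calls each. The changed genes had a median fitted log2 fold change of 1.50 to 1.52 in size and were drawn from genes above a minimum level. Recovery of smaller changes, such as many of those above, or of genes of few counts was not simulated.

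Levels per kb used the exon union of GENCODE 44, where 13500 of the 15298 genes had a model. Promoter windows came from RefSeq (GRCh38.p14) and exons from hg38. The alternatives were DESeq2 1.42.0, other scalings, other low-count filters, a fold limit of 2, the replicate number as a block, a fit on the libraries compared alone, and each library left out in turn. The genes and the lists were chosen with earlier results of these data known. Genes were named by a rule: those called for Dex or in a difference between responses, the 8 largest in comparisons B and C, the 5 highest per kb, paired chains, the enzyme and thrombospondin families whole, and up to 3 per list. COL18A1, and LAMC1 and PLOD1 in siHP1γ Eth cells, were named after their values were seen.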

Additional observations from a re-analysis of the deposited data

Results flagged for a closer look

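In 5 genes the Dex response differed between siPRMT5 and siNS cells by edgeR's test of the difference itself, over 3 libraries in each of the 4 groups. The difference in log2 fold change was -0.90 for COL1A1, -0.61 for COL6A1, -0.62 for LAMA5, -0.60 for LAMB2 and -0.47 for THBS1. In each, all 3 siNS Dex libraries were above all 3 siNS Eth libraries, which are themselves part of the difference tested. In comparison A these libraries did not overlap, in either direction, in 24 of the 32 genes and 27.9% of all genes. COL6A1 was called with any 1 library left out and under every other setting tried.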

How the results depend on the processing

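No call of a matrix gene changed direction under any alternative. Of 90 calls of single genes 63 were kept under all but the fold limit of 2. Counted over genes and settings, 1539 of 1620 calls were kept with 1 library left out and 613 of 630 under the other alternatives. A fold limit of 2 left 1 gene, LOX, in the Dex response of siNS, siHP1γ and siPRMT5 cells alike. For the difference in Dex response with siHP1γ, DESeq2 called 2 genes and the fit without a low-count filter 4 (LAMA5, LAMB2, LAMC1 and THBS1), against 0. Over all genes the counts were 327, 374 and 61. With 1 library left out, the number of matrix genes called ran from 3 to 5 for Dex in siNS cells, from 2 to 3 in siHP1γ and at 6 in siPRMT5 cells, from 11 to 14 in comparison B and from 18 to 21 in comparison C, from 13 to 19 and from 20 to 23 for the same depletions without Dex, and from 0 to 1 and from 1 to 7 for the differences in Dex response with siHP1γ and siPRMT5. The 1 with siHP1γ was LAMC1, without siNS Eth replicate 2. Causes of these shifts were not tested.

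Correlations of deviations from the group means ran from -0.186 to 0.315 (median 0.0066) between libraries of the same number and from -0.316 to 0.315 (median -0.0047) between others, so the numbers were not taken as pairs. As a hint from the data, 10 of 18 libraries correlated best with a library of their own number, which 5 of the 15 compared with each carry. With the replicate number as a block, comparison B had 13 calls in place of 14 (PLOD3 lost, adjusted p = 0.0512 by edgeR), the siPRMT5 difference 6 in place of 5, and the other 7 counts were unchanged. Depth limits the genes of few counts, such as THBS3, LOXL4 and COL9A2, and the intervals of their fold changes are wide.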
